A study of Homo sapiens with 12 samples.

Results

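Protein phosphatase 2A (PP2A) is a holoenzyme of a catalytic, a scaffold and a regulatory subunit, and its regulatory B subunits were followed at the RNA level in 12 libraries of human HEK293T cells and their derivative R1. The genes were chosen by symbol: PPP2R2A, PPP2R2B, PPP2R2C and PPP2R2D of the B55 family, PPP2R5A, PPP2R5B, PPP2R5C, PPP2R5D and PPP2R5E of the B56 family, and PPP2R3A. They make 10 of the 23500 genes listed, each with a single entry. PPP2R3A belongs to the B″ family, so the B55 and B56 names cover 9 of the 10. HEK293T is a transformed embryonic kidney line that does not proliferate when homocysteine replaces methionine, and R1 is a clone of HEK293T that does. Both lines were kept for 12 h in +Met medium, which contains methionine, or in −Met+Hcy medium, which contains homocysteine in place of methionine, with 3 libraries in each of the 4 groups. R1 stands for 1 clone, so traits of the clone and of methionine independence cannot be told apart. The R1 libraries carry R1 in their titles and HEK293T as cell line.

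As background, the B subunit decides which proteins PP2A acts on and where in the cell it does so. B55 complexes counteract cyclin-dependent kinases at the exit from mitosis, and B56 complexes recognise a short leucine- and isoleucine-containing motif in their partners and act at centromeres, on MYC and on p53. Methyl transfer from S-adenosylmethionine, the product of methionine, to the tail of the catalytic subunit favours binding of B55 subunits and affects B56 subunits less. The comparisons therefore ask whether the choice of B subunit genes differs between the media and between the methionine-dependent and the methionine-independent line.

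Library totals ranged from 12664158 to 18771349 estimated counts. Levels are given as CPM, the count per 1000000 counts of the library's sum, and between genes as CPM per kb of the canonical transcript. Tests used edgeR on counts scaled by TMM, which sets the bulk of genes equal between libraries, and a gene passed at an adjusted p under 0.05 over 17162 genes. With column sums in its place, the median log2 fold change of all genes moved from 0.034 to 0.33 for −Met+Hcy against +Met in HEK293T and from 0.019 to 0.37 for R1 against HEK293T in +Met. Nothing in the labels says that the libraries came from separate cultures, so p-values measure the spread between these libraries, which may be technical. Replicate 3 of R1 in −Met+Hcy stood apart: over all genes it differed from the other libraries of its group by a chi-square of 205 and 236 per gene, against 7.13 to 90.1 for the other pairs of replicates. Results for the B subunit genes are therefore given with and without it. Of 8 markers of HEK293T cells, 7 averaged over 1 CPM in both HEK293T groups (all but PAX2) and 8 in both R1 groups. With edgeR 3 of them were higher and 2 lower in R1 than in HEK293T in +Met, beside 10.2% of all genes. In −Met+Hcy 2 were higher and 2 lower, beside 14.0%, and VIM fell between the media in HEK293T, beside 7.03%. The summed level of 10 markers of epithelial breast lines was 4.13 to 6.10 CPM in HEK293T in +Met, 5.07 to 9.61 CPM in HEK293T in −Met+Hcy, 11.3 to 22.7 CPM in R1 in +Met and 19.0 to 21.3 CPM in R1 in −Met+Hcy. Of these, KRT5, KRT14 and KRT6A were at 0 in all libraries. With edgeR CDH1 and EGFR were higher in R1 than in HEK293T in +Met, EGFR and EPCAM were higher in R1 in −Met+Hcy, and CDH1 rose between the media in HEK293T. The part of this difference in the results was not tested. The summed level of 3 blood cell markers was at most 1.12 CPM in any library.

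The promoters of PPP2R5A, PPP2R5B and PPP2R5D are shown because these B56 genes are described at length below. With all libraries edgeR passed PPP2R5A in 1 comparison and neither PPP2R5B nor PPP2R5D in any. In GRCh38 (GENCODE) PPP2R5A lies at chr1:212285410-212361853, PPP2R5B at chr11:64917553-64934475 and PPP2R5D at chr6:42984553-43012342, and PPP2R2C at chr4:6320578-6563600. Each run is the 250 bases before a RefSeq transcription start (GRCh38.p14, plus strand), with matches in capitals. The motifs searched, on both strands, were the CCAAT box, the GC box (GGGCGG), an ETS core (CCGGAAG), the full cyclic AMP element (TGACGTCA), the E-box (CACGTG), the NRF1 motif and the C/EBP-ATF composite element (TGATGNAA).
PPP2R5A, chr1:212285160-212285409: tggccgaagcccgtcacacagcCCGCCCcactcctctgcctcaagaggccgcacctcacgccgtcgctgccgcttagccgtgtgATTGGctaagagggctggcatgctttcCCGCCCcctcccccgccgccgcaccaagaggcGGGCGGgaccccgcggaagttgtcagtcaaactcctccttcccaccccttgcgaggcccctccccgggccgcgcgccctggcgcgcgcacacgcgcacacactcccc
PPP2R5B, chr11:64924439-64924688: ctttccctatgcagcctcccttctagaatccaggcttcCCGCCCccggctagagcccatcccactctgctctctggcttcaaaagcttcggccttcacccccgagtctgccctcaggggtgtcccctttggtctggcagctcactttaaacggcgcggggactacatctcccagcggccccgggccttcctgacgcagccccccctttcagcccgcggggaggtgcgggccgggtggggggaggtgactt
PPP2R5D, chr6:42984320-42984569: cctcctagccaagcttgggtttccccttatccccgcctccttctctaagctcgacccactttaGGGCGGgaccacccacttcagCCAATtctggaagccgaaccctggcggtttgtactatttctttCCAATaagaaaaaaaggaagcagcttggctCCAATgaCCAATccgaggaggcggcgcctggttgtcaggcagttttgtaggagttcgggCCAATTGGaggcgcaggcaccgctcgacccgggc
The PPP2R5A window held 3 GC boxes and 1 match to the CCAAT box, and the PPP2R5B window held 1 GC box. Guanine and cytosine made 72.0% of the PPP2R5A window and 66.0% of the PPP2R5B window, beside a median of 58.0% over 35116 RefSeq promoters. The PPP2R5D window held 1 GC box and 6 CCAAT matches, of which the pair nearest the start overlap. CCAAT occurred at least once in 32.0% of all these promoters and at least 6 times in 0.105%, and the GC box occurred in 42.6%. The other motifs were in none of these 3 windows, and they occurred in 8.52% (ETS), 1.65% (cyclic AMP), 6.34% (E-box), 1.03% (NRF1) and 3.14% (C/EBP-ATF) of all promoters. PPP2R5A has a second RefSeq start, whose window at chr1:212301608-212301857 was 33.2% guanine and cytosine and held no match. The PPP2R5B window lies within the GENCODE interval of that gene, which begins further upstream. A match is a run of letters and does not show binding.

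Among the 10 genes, PPP2R5C, PPP2R2A and PPP2R5D had the highest levels per kb in HEK293T cells. Other B-type subunits, among them STRN4 at 87.1 and PPP2R3C at 71.2 CPM in +Met, were not measured per kb. In +Met, PPP2R5C, the B56 member best known at centromeres and on p53, was at 38.1 ± 3.21 CPM per kb (SD, n = 3). PPP2R2A, the widely expressed B55 subunit of mitotic exit, was at 37.0 ± 1.06 CPM per kb, and the ranges of these top genes overlapped. PPP2R5D followed with 29.8 ± 0.55, PPP2R5A with 11.5 ± 0.36, PPP2R2D with 8.91 ± 0.26, PPP2R5E with 5.26 ± 0.60, PPP2R5B with 3.85 ± 0.80 and PPP2R3A with 1.53 ± 0.31 CPM per kb. Below PPP2R2A, no neighbours in this order had overlapping ranges in HEK293T in +Met. The order was nearly kept in −Met+Hcy, but PPP2R2A stood first with 44.2 ± 3.86 CPM per kb and PPP2R5B, at 6.62 ± 0.77, came before PPP2R5E. In R1 in +Met the ranges of PPP2R5D, PPP2R5C and PPP2R2A overlapped, at 38.8 ± 5.61, 37.9 ± 9.73 and 35.2 ± 6.59 CPM per kb. Replicate 2 of that group had PPP2R5D at 32.4 against 41.6 and 42.5 CPM per kb in the others. It had PPP2R5C at 49.2 against 32.9 and 31.8 CPM per kb. In the same group PPP2R2D, at 13.0 ± 0.15, stood above PPP2R5A, at 10.9 ± 1.11. In R1 in −Met+Hcy PPP2R5C was at 46.9 ± 22.0 CPM per kb, or 34.3 ± 5.13 (n = 2) without replicate 3.

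The neuronal B55 subunits were low. PPP2R2B, which is mainly a brain gene, had counts of 1, 0 and 1 in HEK293T in +Met, 2, 6 and 1 in −Met+Hcy, 8, 4 and 3 in R1 in +Met, and 6, 1 and 9 in R1 in −Met+Hcy. A difference in PPP2R2B was not detectable at this depth. Its fitted fold changes are given only among the directions that turned between fits. PPP2R2C, also mainly a brain gene, had counts of 2, 7 and 12 in HEK293T in +Met and of 73, 62 and 40 in R1 in +Met. All 10 genes passed the filter of a summed count of at least 10, and PPP2R2B did so with few counts in every group.

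**Figure D1:**
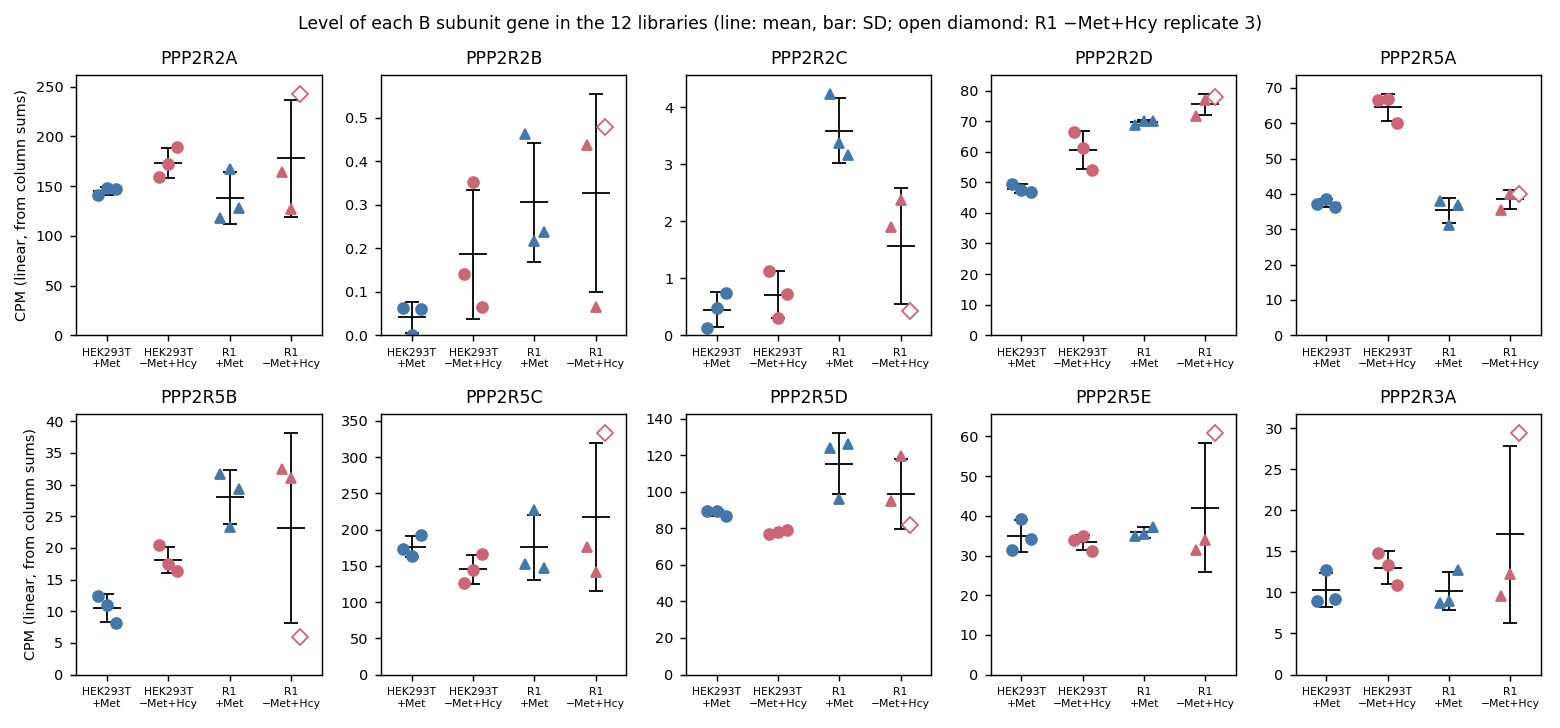
Level of each of the 10 B subunit genes in the 12 libraries, in CPM from column sums on linear axes that start at 0. Horizontal lines are group means, bars are SD (n = 3), circles are HEK293T, triangles are R1, blue is +Met, red is −Met+Hcy, and the open diamond is R1 −Met+Hcy replicate 3. PPP2R5A is at 60.0 to 66.7 CPM in HEK293T in −Met+Hcy and at 31.3 to 40.0 CPM in the other 9 libraries. The open diamond lies far from the other libraries of its group for PPP2R2A, PPP2R2C, PPP2R5B, PPP2R5C, PPP2R5E and PPP2R3A.

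In HEK293T cells PPP2R5A, the B56 subunit known to direct PP2A to MYC, had a higher CPM in −Met+Hcy medium. In edgeR with TMM the difference passed without R1 −Met+Hcy replicate 3 and not with all libraries. DESeq2, and edgeR with column sums, passed it with all libraries. PPP2R5A was at 37.0, 38.6 and 36.4 CPM in +Met and at 66.6, 66.7 and 60.0 CPM in −Met+Hcy. The groups did not overlap, and the ratio of the mean CPM was 1.73. After TMM scaling the libraries stood at 44.8, 43.8 and 43.6 against 61.3, 64.2 and 60.4 CPM, again with no overlap. The fitted log2 fold change was 0.49 ± 0.16 (SE), with an edgeR adjusted p of 0.0958, so PPP2R5A did not pass. In bulk RNA, more RNA per cell and a larger share of cells with the RNA cannot be told apart.

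PPP2R5D, a B56 subunit known from a neurodevelopmental disorder, differed the other way. It was at 89.7, 89.4 and 86.7 CPM in +Met and at 77.1, 78.1 and 79.4 CPM in −Met+Hcy, with no overlap. Its log2 fold change was −0.47 ± 0.16 (edgeR adjusted p = 0.108). PPP2R5B, a B56 subunit known to act on the kinase AKT, was at 12.5, 10.96 and 8.14 CPM in +Met and at 20.4, 17.4 and 16.4 CPM in −Met+Hcy. These groups did not overlap either, but the log2 fold change of 0.48 ± 0.43 had an edgeR adjusted p of 0.549. PPP2R5C was at 173, 164 and 193 CPM in +Met and at 126, 144 and 166 CPM in −Met+Hcy, which overlapped, with a log2 fold change of −0.57 ± 0.34 and an edgeR adjusted p of 0.354.

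In all, 0 of the 10 genes passed in HEK293T with edgeR, where 7.03% of all genes did. At an unadjusted p under 0.05 there were 2, PPP2R5A higher and PPP2R5D lower, beside 22.4% of all genes. DESeq2 passed both, with adjusted p of 0.0216 for PPP2R5A and 0.018 for PPP2R5D, beside 13.0% of all genes. Over the alternatives tried, the adjusted p ranged from 0.00721 to 0.272 for PPP2R5A and from 0.00939 to 0.563 for PPP2R5D. The median log2 fold change of the 10 genes was 0.042, and 0.041 without PPP2R2B, beside 0.034 over all genes tested. In CPM, 5 genes were higher in every −Met+Hcy library than in any +Met library and 1 was lower, beside 38.6% and 9.8% of all genes. The higher genes were PPP2R2A, PPP2R2D, PPP2R5A, PPP2R5B and PPP2R2B, and the lower was PPP2R5D. PPP2R2B had only 0 to 6 reads in these libraries, so its place among them carries no weight. After TMM scaling 2 genes were higher, PPP2R5A and PPP2R5B, and 3 lower, PPP2R5C, PPP2R5D and PPP2R5E, beside 24.7% and 20.6%.

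Without R1 −Met+Hcy replicate 3, which is in neither HEK293T group but enters the shared estimate of the spread, the common dispersion was 0.0349 against 0.109. PPP2R5A then rose (log2 fold change 0.49 ± 0.11, edgeR adjusted p = 0.00721), and PPP2R5D (−0.47 ± 0.14, adjusted p = 0.0212) and PPP2R5E (−0.36 ± 0.11, adjusted p = 0.032), a widely expressed B56 subunit, fell. That is 3 of 10 genes, beside 27.7% of all genes in the same fit. In CPM the PPP2R5E groups overlapped, at 31.4, 39.3 and 34.3 in +Met and at 33.8, 34.8 and 31.3 in −Met+Hcy, and only after TMM scaling did they not. PPP2R5E passed in 3 of 24 alternatives, with log2 fold changes from −0.42 to −0.072. PPP2R5B (adjusted p = 0.0502) and PPP2R5C (adjusted p = 0.0548) did not pass in the edgeR fit. The B55 genes and PPP2R3A did not pass: PPP2R2A was at −0.034 ± 0.17, PPP2R2D at 0.041 ± 0.11 and PPP2R3A at 0.043 ± 0.19 on the log2 scale. With column sums and all libraries PPP2R2A was at 0.26 on that scale, so its direction depends on the scaling. In CPM, PPP2R2A was at 141, 148 and 147 in +Met and at 159, 173 and 189 in −Met+Hcy, and PPP2R2D at 49.4, 47.5 and 46.7 and at 66.5, 61.3 and 53.9. Neither pair of groups overlapped in CPM, while after TMM scaling both overlapped. PPP2R3A, a calcium-binding B″ subunit, was at 8.95, 12.7 and 9.24 CPM in +Met and at 14.8, 13.4 and 10.9 CPM in −Met+Hcy, which overlapped.

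**Figure D2:**
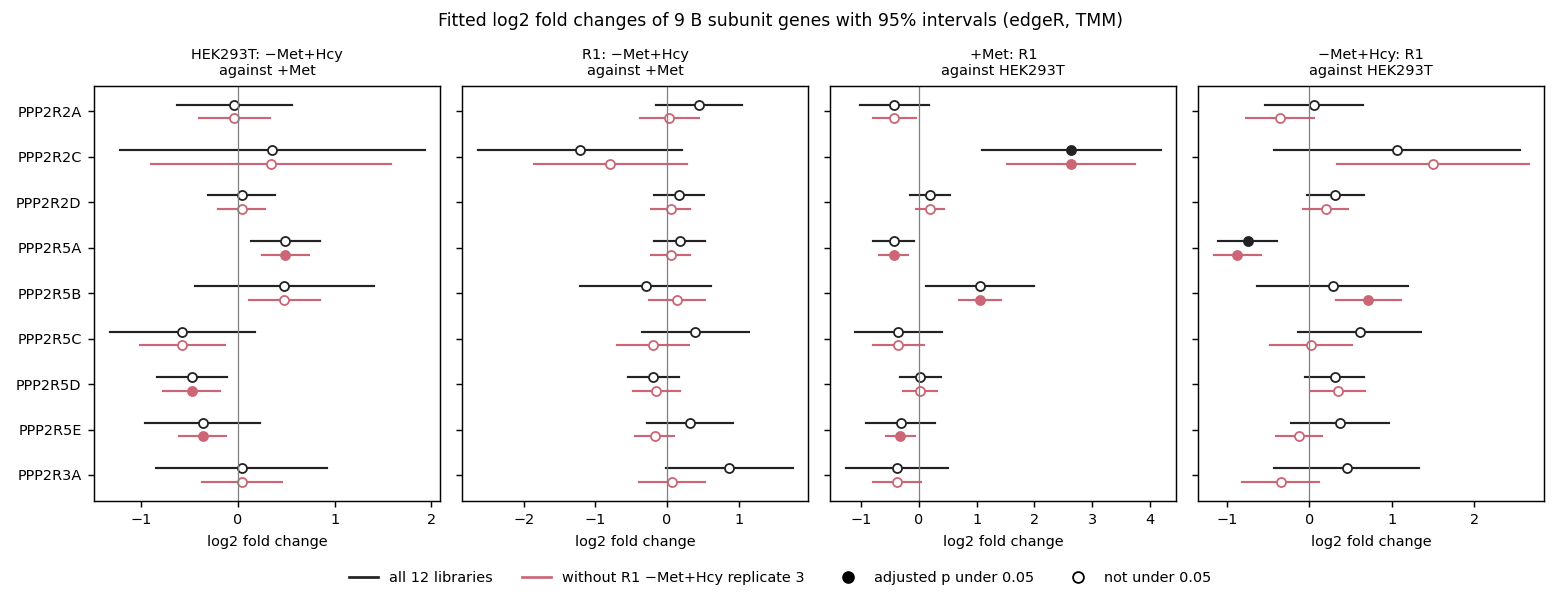
Fitted log2 fold changes of 9 B subunit genes (horizontal axes) in 4 comparisons, with 95% intervals as lines, black for all 12 libraries and red without R1 −Met+Hcy replicate 3. Filled points have an edgeR adjusted p under 0.05. With all libraries the filled points are PPP2R2C (2.64, R1 against HEK293T in +Met) and PPP2R5A (−0.75, R1 against HEK293T in −Met+Hcy), and PPP2R2B is left out for its low counts.

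In R1 cells the media did not separate PPP2R5A or PPP2R5D, and no B subunit gene passed. PPP2R5A was at 38.1, 31.3 and 36.7 CPM in +Met and at 35.4, 40.0 and 40.0 CPM in −Met+Hcy, and the groups overlapped. Its log2 fold change was 0.17 (95% interval −0.18 to 0.53), with an edgeR adjusted p of 0.721. Without replicate 3 it was 0.050 (95% interval −0.23 to 0.33). PPP2R5D was at 124, 96.2 and 126 CPM in +Met and at 94.7, 119 and 81.9 CPM in −Met+Hcy, with overlap and a log2 fold change of −0.19 ± 0.16.

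PPP2R2C was at 4.23, 3.37 and 3.16 CPM in +Met and at 1.90, 2.37 and 0.43 CPM in −Met+Hcy. All R1 libraries in −Met+Hcy lay below those in +Met, with replicate 3 the lowest, and the log2 fold change was −1.21 ± 0.66 (edgeR adjusted p = 0.632), or −0.79 ± 0.49 (adjusted p = 0.815) without replicate 3. With edgeR 0 of the 10 genes passed in R1, beside 0.00583% of all genes. By edgeR 0 had an unadjusted p under 0.05, beside 7.78%. DESeq2 passed 0, beside 0.233%. Without replicate 3, 0 passed with edgeR, beside 0.0176%. The median log2 fold change of the 10 genes was 0.18, and 0.17 without PPP2R2B, beside −0.015 over all genes. It was −0.060 without replicate 3, or 0.030 when PPP2R2B was left out too.

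The test of the difference between the responses, R1 minus HEK293T, passed 0 of the 10 genes with edgeR, beside 0.0583% of all genes. At an unadjusted edgeR p under 0.05 there were 0, beside 9.67%, and DESeq2 passed 0, beside 1.3%. For PPP2R5A the difference was −0.32 ± 0.23 (edgeR adjusted p = 0.675), and −0.44 ± 0.17 (unadjusted p = 0.0236, adjusted p = 0.213) without replicate 3, a fit in which 0 of the 10 genes passed, beside 1.68% of all genes. A difference of response between the lines was thus not established for any B subunit gene. For PPP2R5C the difference of 0.97 ± 0.49 with all libraries became 0.38 ± 0.30 without replicate 3.

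R1 −Met+Hcy replicate 3 differed from the other libraries of its group in a graded way over the B subunit genes. PPP2R3A, the B″ subunit, stood at 29.4 CPM there against 9.62 and 12.2 CPM, PPP2R5C at 333 against 176 and 142 CPM, and PPP2R5E at 60.8 against 31.5 and 33.9 CPM. PPP2R5B stood at 5.86 CPM against 32.4 and 31.1 CPM, the reverse. The genes that were high in this library have canonical transcripts of low GC content, 39.1% for PPP2R3A, 41.9% for PPP2R5C and 38.8% for PPP2R5E, and PPP2R5B has 60.8%. GC content did not order all genes: PPP2R2C, at 52.8%, differed by −2.02 in log2 CPM and PPP2R2D, at 53.3%, by 0.069. PPP2R2C averaged below 5 CPM and is not in the correlation that follows. In the 8 members that averaged 5 CPM or more, the log2 difference and GC content had a Pearson correlation of −0.90 and a Spearman correlation of −0.79, as a description of 1 library. Over 11043 genes that library's deviation from the mean of the others in its group had a Spearman correlation of −0.74 with GC content. Replicates 1 and 2 of the group were at 0.60 and 0.73, but each was set against a mean that holds replicate 3. The libraries of the other groups lay between −0.34 and 0.54.

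**Figure D3:**
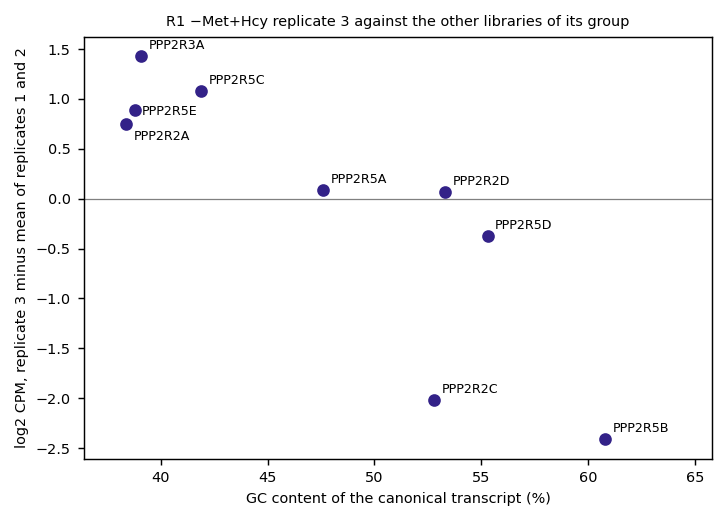
Difference in log2 CPM between R1 −Met+Hcy replicate 3 and the mean of replicates 1 and 2 (vertical axis) against the GC content of the canonical transcript in percent (horizontal axis), 1 point for each of 9 B subunit genes. PPP2R3A lies at 1.43 with 39.1% GC, PPP2R5A at 0.087 with 47.6%, and PPP2R5B at −2.41 with 60.8%.

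In +Met, PPP2R2C was higher in R1 than in HEK293T. It was at 0.13, 0.48 and 0.73 CPM in HEK293T and at 4.23, 3.37 and 3.16 CPM in R1, with no overlap. The log2 fold change was 2.64 ± 0.71, or 6.22-fold, with an edgeR adjusted p of 0.0357. PPP2R2C was the 1 of 10 genes that passed, beside 10.2% of all genes in either direction and 5.69% higher. Its level in R1, 0.81 ± 0.13 CPM per kb, was still below that of every other member but PPP2R2B. Leaving out any library of these groups, or HEK293T −Met+Hcy replicate 3, ended the call, with log2 fold changes from 2.20 to 3.23, and without R1 −Met+Hcy replicate 3 the adjusted p was 0.00216. With the replicate number as a block it was 0.082. Over all alternatives it passed in 16 of 24, with adjusted p from 0.00216 to 0.125. PPP2R2C did not pass between the lines in −Met+Hcy (log2 fold change 1.06 ± 0.69, edgeR adjusted p = 0.325). The share of all genes whose groups did not overlap was computed only between the media in HEK293T. Statements of no overlap between the lines are thus a description without that background.

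PPP2R5B was also higher in R1 in +Met, by values of 31.7, 23.3 and 29.2 CPM against 12.5, 10.96 and 8.14 CPM in HEK293T. These groups did not overlap, and the mean CPM was 2.67 times as high. With column sums, the scale of CPM, the median log2 fold change of all genes was 0.37 here. The log2 fold change of 1.06 ± 0.43 did not pass with all libraries (edgeR adjusted p = 0.139). It passed without R1 −Met+Hcy replicate 3 (1.06 ± 0.17, adjusted p = 0.000607) and with each library's trend on GC content removed (0.90 ± 0.19, adjusted p = 0.00545), within a range of 0.000333 to 0.358 over the alternatives.

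PPP2R5A had overlapping CPM in R1 and HEK293T in +Met, but after TMM scaling the R1 libraries were at 34.8, 29.8 and 33.3 CPM, below the 43.6 to 44.8 CPM of HEK293T. Its log2 fold change was −0.43 ± 0.16 (edgeR adjusted p = 0.117), and −0.43 ± 0.11 (adjusted p = 0.0122) without R1 −Met+Hcy replicate 3. PPP2R5E passed in that fit too, at −0.32 ± 0.11 (adjusted p = 0.0489). With column sums its value was 0.033, so the direction depends on the scaling. The fit without that library thus passed 4 genes, PPP2R2C and PPP2R5B higher and PPP2R5A and PPP2R5E lower, beside 32.7% of all genes. PPP2R2D, a B55 subunit of mitotic exit like PPP2R2A, was at 68.7, 70.1 and 70.1 CPM in R1 and at 49.4, 47.5 and 46.7 CPM in HEK293T. Its log2 fold change was 0.54 (edgeR adjusted p = 0.0293) with column sums and 0.19 ± 0.16 (adjusted p = 0.498) with TMM, and adjusted p reached 0.81 over the alternatives.

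In −Met+Hcy, PPP2R5A was lower in R1 than in HEK293T, at 35.4, 40.0 and 40.0 CPM against 66.6, 66.7 and 60.0 CPM. The groups were far apart, with a ratio of the means of 0.596. The log2 fold change was −0.75 ± 0.16 (95% interval −1.11 to −0.39), with an edgeR adjusted p of 0.0106. PPP2R5A was the 1 of 10 genes that passed, beside 14.0% of all genes in either direction and 6.76% lower. It passed in 22 of 24 alternatives, with adjusted p from 4.95e-05 to 0.104 and log2 fold changes from −0.88 to −0.65. The exceptions were the fit on the 6 libraries compared (adjusted p = 0.104) and the fit without HEK293T −Met+Hcy replicate 2 (adjusted p = 0.0539). The median log2 fold change of the 10 genes was 0.34, beside −0.0080 over all genes, and 0.11 without R1 −Met+Hcy replicate 3.

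PPP2R5B in −Met+Hcy depended on 1 library. R1 stood at 32.4, 31.1 and 5.86 CPM and HEK293T at 20.4, 17.4 and 16.4 CPM. The log2 fold change was 0.28 ± 0.42 (edgeR adjusted p = 0.694) with all libraries and 0.72 ± 0.18 (adjusted p = 0.0102) without R1 replicate 3, where PPP2R5A at −0.88 ± 0.13 (adjusted p = 0.000376) passed as well, beside 30.3% of all genes. With the GC trend removed and that library left out, PPP2R5B was at 0.46 ± 0.14 (adjusted p = 0.0249). PPP2R2A, PPP2R5E and PPP2R3A were higher in R1 with all libraries, at 0.055, 0.37 and 0.45 on the log2 scale, and lower without replicate 3, at −0.36, −0.13 and −0.35, and none of these values passed.

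The make-up of each family was described by the share of each gene in the family's summed CPM per kb, a ratio within a library that does not involve the scaling between libraries. In HEK293T, PPP2R5A made 12.9, 13.6 and 12.4% of B56 RNA in +Met and 23.8, 23.0 and 20.2% in −Met+Hcy. In R1 it made 11.4, 9.18 and 11.1% in +Met and 11.2 ± 1.18% in −Met+Hcy. PPP2R5A thus held a larger share in the HEK293T libraries in −Met+Hcy than in any of the other 9. PPP2R5B made 4.36 ± 0.95% in HEK293T in +Met, 7.45 ± 1.10% in −Met+Hcy, and 9.96 ± 1.63% in R1 in +Met. In R1 in −Met+Hcy it made 12.2, 11.4 and 1.74%. PPP2R5C went from 43.0 ± 2.89% to 35.1 ± 3.77% in HEK293T and PPP2R5D from 33.7 ± 1.15% to 29.5 ± 0.50%, neither with overlap. The sum of the B56 genes was 88.5 ± 1.47 CPM per kb in +Met and 89.1 ± 2.77 in −Met+Hcy in HEK293T. On this column-sum scale the shares thus moved while the sums overlapped, and the sums were not compared after TMM scaling. A share shows unequal change and not which gene stayed level.

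PPP2R2A made 80.4 ± 0.79% of B55 RNA in HEK293T in +Met, 79.3 ± 3.16% in −Met+Hcy and 71.5 ± 3.58% in R1 in +Met. PPP2R2D made 19.4 ± 0.92% in HEK293T in +Met and 26.8 ± 3.20% in R1 in +Met, with no overlap, and PPP2R2C 0.22 ± 0.15% and 1.68 ± 0.43%. In R1 in −Met+Hcy PPP2R2A made 75.2, 68.6 and 80.9%, the last in replicate 3. The summed B55 level was 46.0 ± 0.89 and 55.7 ± 2.64 CPM per kb in HEK293T in +Met and −Met+Hcy, which did not overlap on this column-sum scale.

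**Figure D4:**
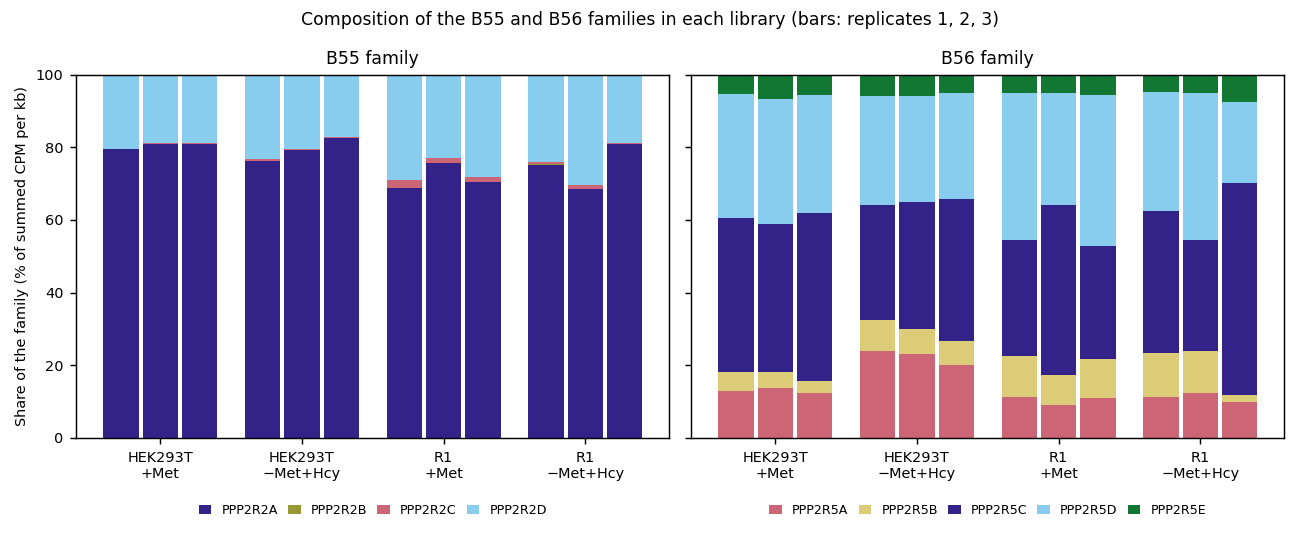
Composition of the B55 family (left) and the B56 family (right) in each library, as percent of the family's summed CPM per kb, with 3 bars for replicates 1, 2 and 3 of each group. PPP2R5A takes 20.2 to 23.8% of the B56 bars in HEK293T in −Met+Hcy and 9.18 to 13.6% in the other groups, and the last R1 −Met+Hcy bar has a PPP2R5C share of 58.5%.

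The partners of the B subunits were taken from gene lists. Among the 4 catalytic and scaffold genes, whose median log2 fold change between the media in HEK293T was −0.051 beside 0.034 over all genes, 1 passed in 1 comparison: PPP2CA, the main catalytic subunit, was lower in R1 than in HEK293T in −Met+Hcy (log2 fold change −0.65 ± 0.14, edgeR adjusted p = 0.0107), a comparison in which 14.0% of all genes passed. PPP2CA was at 160, 167 and 149 CPM in HEK293T in +Met and at 273, 280 and 263 CPM in −Met+Hcy, which did not overlap. In R1 it was at 165, 149 and 168 CPM and at 187, 185 and 158 CPM. Its HEK293T medium difference of 0.49 ± 0.14 had an edgeR adjusted p of 0.0597, and it passed without R1 −Met+Hcy replicate 3 (adjusted p = 0.00695). In that fit the scaffold gene PPP2R1A fell in HEK293T in −Met+Hcy (−0.66 ± 0.14, adjusted p = 0.0047), beside 27.7% of all genes, and PPP2CA (−0.33 ± 0.11, adjusted p = 0.0365) and PPP2R1A (−0.49 ± 0.14, adjusted p = 0.0196) were lower in R1 in +Met, beside 32.7%.

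The 5 genes of methylation, activation and assembly had a median log2 fold change of −0.32 between the media in HEK293T, where 1 passed, beside 7.03% of all genes. PPME1, the methylesterase that removes the methyl group from the catalytic subunit, fell in HEK293T in −Met+Hcy. It was at 32.0, 35.0 and 29.9 CPM in +Met and at 24.1, 22.7 and 18.2 CPM in −Met+Hcy, with a log2 fold change of −0.87 ± 0.19 (edgeR adjusted p = 0.0182). PPME1 was higher in R1 than in HEK293T in −Met+Hcy (1.13 ± 0.19, adjusted p = 0.00249). IGBP1, which binds free catalytic subunit, was lower in R1 in +Met (−1.41 ± 0.21, adjusted p = 0.00161) and in −Met+Hcy (−1.21 ± 0.20, adjusted p = 0.00257), so 1 of 5 passed in +Met, beside 10.2% of all genes, and 2 in −Met+Hcy, beside 14.0%. Without R1 −Met+Hcy replicate 3 these calls held, and TIPRL, a regulator of the catalytic subunit, fell in HEK293T in −Met+Hcy (−0.85 ± 0.29, adjusted p = 0.0475) and PPME1 was higher in R1 in +Met (0.54 ± 0.15, adjusted p = 0.0156).

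Of 8 docking partners and regulators of B56, with a median log2 fold change of 0.42 between the media in HEK293T, 1 passed there, beside 7.03% of all genes, 3 passed between the lines in +Met, beside 10.2%, and 1 in −Met+Hcy, beside 14.0%. CCNG1, a cyclin that binds B56, fell in HEK293T in −Met+Hcy (log2 fold change −0.76 ± 0.20, edgeR adjusted p = 0.0436). In R1 against HEK293T in +Met, BOD1, a mitotic protein that inhibits B56 complexes, was lower (−1.04 ± 0.27, adjusted p = 0.0295), CCNG1 was lower (−0.70 ± 0.20, adjusted p = 0.0497) and the related CCNG2 was higher (0.70 ± 0.18, adjusted p = 0.0297). BOD1 was lower in R1 in −Met+Hcy as well (−1.30 ± 0.27, adjusted p = 0.00799). Without R1 −Met+Hcy replicate 3 these calls held, SGO2, a shugoshin, rose in HEK293T in −Met+Hcy (0.83 ± 0.16, adjusted p = 0.00225), and ARHGEF2 was higher in R1 in +Met (0.99 ± 0.18, adjusted p = 0.00152) and in −Met+Hcy (0.91 ± 0.20, adjusted p = 0.00418), as was CCNG2 in −Met+Hcy (0.43 ± 0.15, adjusted p = 0.0432).

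The 5 genes of the pathway that restrains B55 (MASTL, ENSA, ARPP19, PABIR1 and PABIR2) had 0 passes in the 5 comparisons with edgeR and 0 with DESeq2 when all libraries were used. Of all genes, edgeR passed from 0.00583% in R1 between the media to 14.0% between the lines in −Met+Hcy. DESeq2 passed from 40 to 3543 of 17162 genes in the same comparisons. Without R1 −Met+Hcy replicate 3 edgeR passed PABIR1, lower in R1 than in HEK293T in +Met (−0.58 ± 0.17, adjusted p = 0.0201), beside 32.7% of all genes. With all libraries, at an unadjusted edgeR p under 0.05 there was 1 higher in R1 between the media, beside 7.78% of all genes in either direction. There was also 1 lower in R1 against HEK293T in +Met, beside 2137 lower of 17162 genes. As a reference for the response to the medium, 5 of 7 amino acid response genes rose in HEK293T in −Met+Hcy, beside 7.03% of all genes, MAT2A, which makes S-adenosylmethionine, by a log2 fold change of 1.58 ± 0.21 (edgeR adjusted p = 0.00204). MAT2A also rose in R1 (2.09 ± 0.22, adjusted p = 0.00698).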

How the data were processed

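RNA from 12 libraries (HEK293T and R1, each in +Met and −Met+Hcy for 12 h, 3 libraries each) had been quantified by the authors with kallisto v0.48.0 against GRCh38. The deposited values are estimated counts, which the authors added up per Ensembl gene and made into integers. kallisto divides reads that fit several transcripts among them, so reads from alike stretches of related subunits may have been shared. Genes with a summed count of at least 10 were tested (17162 of 23500) with edgeR 4.0.16 in R 4.3.3, by the quasi-likelihood test with TMM scaling, one mean per group and Benjamini-Hochberg adjustment over all genes tested. CPM were computed from column sums, and lengths and GC content came from the GENCODE canonical transcripts (GC content for 15857 genes tested). Alternatives were DESeq2 1.42.0, the 6 libraries compared, RLE, column sums, other filters, robust spread, the replicate number as a block, 1 entry per set of identical copies, an added minimum log2 fold change of 1, removal of each library's GC trend by loess, transcript length and each library left out. A fit with the GC trend removed and without R1 −Met+Hcy replicate 3 was added after the data were seen. The members and lists were chosen with earlier results of these data known. All 10 members are named; listed genes are named mainly from those that passed. Counts were also simulated with 100 genes changed 2-fold and 100 changed 4-fold in the HEK293T comparison, chosen outside the lowest and highest levels. On 16928 genes with the spread of all 12 libraries, edgeR called 13% of those changed 2-fold and 75% of those changed 4-fold. On 16992 genes with the spread without R1 −Met+Hcy replicate 3 it called 73% and 98%. More genes passed in the data than were changed there, so these rates need not hold for the members.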

Additional observations from a re-analysis of the deposited data

How the results depend on the processing

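Between the media in HEK293T, the number of members that passed was 0, and 2 with DESeq2, 4 with the 6 libraries compared, 1 with column sums, 0 to 3 with 1 library left out, and 5 with the GC trend removed and R1 −Met+Hcy replicate 3 left out. For R1 against HEK293T in +Met it was 1, and 2 with DESeq2, 3 with the 6 libraries, 2 with column sums, 3 with the GC trend removed, 2 with this and the replicate block, 0 with the replicate block alone, 0 to 4 with 1 library left out, and 3 with the GC trend removed and R1 −Met+Hcy replicate 3 left out. In −Met+Hcy it was 1, and 0 with the 6 libraries, 0 with an absolute log2 fold change over 1, 0 to 2 with 1 library left out, and 2 with the GC trend removed and R1 −Met+Hcy replicate 3 left out. In R1 between the media and for the difference of responses it was 0 under each alternative.

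Same-numbered libraries deviated together with correlations from −0.50 to 0.48, so the numbers were not taken to pair the libraries. The replicate block lowered the genes passing between the media in HEK293T from 1207 (730 higher, 477 lower) to 618 (404 higher, 214 lower), and changed no other member call than that of PPP2R2C. Over all genes, 4731 passed there without R1 −Met+Hcy replicate 3, 2237 with DESeq2, 5562 with the 6 libraries, 2007 with column sums (1794 higher, 213 lower) and 2542 with the GC trend removed. With the GC trend removed and that library left out it was 5009 of 15798. Between the lines in +Met 1745 of 17162 genes passed, 2884 with DESeq2, 4865 of 16201 with the 6 libraries and 2608 with column sums. It was 3129 of 15857 with the GC trend removed, 2345 with this and the block, 1122 with the block and 5582 without that library. In −Met+Hcy 2395 of 17162 passed, 498 of 16523 with the 6 libraries and 5168 without that library.

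Directions turned as follows, with none of the turned values passing (log2 fold changes). With column sums: PPP2R2A 0.26 in HEK293T between the media, PPP2R2D −0.22 and PPP2R5D −0.046 in the difference of responses, and PPP2R5E 0.033 between the lines in +Met. With the GC trend removed, and in brackets with the replicate block too: in R1 between the media PPP2R2B −0.033 (−0.050), PPP2R5D 0.15 (0.12) and PPP2R5E −0.023 (−0.031), between the lines in +Met PPP2R5D −0.094 (−0.10), and in −Met+Hcy PPP2R2A −0.057 (−0.059). With the GC trend removed and R1 −Met+Hcy replicate 3 left out: in R1 between the media PPP2R2B −0.39, PPP2R5B 0.15, PPP2R5C −0.21 and PPP2R5E −0.20, between the lines in +Met PPP2R5D −0.094, and in −Met+Hcy PPP2R2A −0.16 and PPP2R3A −0.16. With 1 library left out, the values of members that turned ranged as follows. In HEK293T between the media they were PPP2R2A from −0.12 to 0.055, PPP2R2C from −0.074 to 0.95 and PPP2R3A from −0.033 to 0.19. In R1 between the media they were PPP2R2B from −0.35 to 0.67, PPP2R5B from −0.60 to 0.14, PPP2R5C from −0.20 to 0.66 and PPP2R5E from −0.17 to 0.53. Between the lines in +Met they were PPP2R5D from −0.032 to 0.12. Between the lines in −Met+Hcy they were PPP2R2A from −0.36 to 0.29, PPP2R5B from −0.024 to 0.72, PPP2R5E from −0.13 to 0.58 and PPP2R3A from −0.35 to 0.77.

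With the longest transcript in place of the canonical one, levels in HEK293T in +Met were 7.72 CPM per kb for PPP2R2D and 28.0 for PPP2R5D, and shares were 82.6% for PPP2R2A, 17.2% for PPP2R2D and 32.3% for PPP2R5D. The causes were not tested. At this depth PPP2R2B, with 0 to 9 counts a library, could not be compared, and the filter of edgeR's filterByExpr removed it.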

Other observations

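The genes whose profiles over the 12 libraries were most like those of 3 members with a wide range of group means were looked up among 11635 genes, by the root mean square difference of centred log2 CPM. For PPP2R5A the nearest was PPP2CA, the catalytic subunit of PP2A, at 0.108, before ISG20L2 at 0.114 and SUPV3L1 at 0.122, and the group means of PPP2R5A spanned 0.87 on that scale. Without R1 −Met+Hcy replicate 3 these were at ranks 10, 17 and 24. For PPP2R5B, with a span of 1.41, the nearest were NLRX1 at 0.118, TSC22D4 at 0.151 and GPR176 at 0.174, which were at ranks 2, 6 and 28 without that library. For PPP2R2D, with a span of 0.66, they were GPSM2 at 0.081, ATP2C1 at 0.081 and RPN2 at 0.093, at ranks 4, 8 and 12 without it. The libraries share their depth and GC trends over these genes, and no test was made.

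Further lists of the PP2A neighbourhood had no gene that passed with edgeR in the 5 comparisons of all libraries. Of all genes, 7.03% passed between the media in HEK293T, 10.2% between the lines in +Met and 14.0% in −Met+Hcy. An unadjusted edgeR p under 0.05 was reached by 22.4% of all genes between the media in HEK293T and by 7.78% in R1. For the difference of responses it was 9.67%. In R1 against HEK293T it was reached by 2342 genes higher and 2137 lower of 17162 in +Met. In −Met+Hcy it was 2578 higher and 2492 lower. Of 5 other B-type subunits, at an unadjusted p under 0.05 there were 1 higher and 1 lower in R1 against HEK293T in +Met and 1 higher in −Met+Hcy. DESeq2 passed PPP2R3C, lower in R1 in +Met, and STRN3, a striatin, higher in R1 in −Met+Hcy. Over all 17162 genes DESeq2 passed 2884 between the lines in +Met and 3543 in −Met+Hcy, and 13.0% between the media in HEK293T. Of 4 PP2A inhibitors, 1 was lower in HEK293T between the media and 2 were higher in R1 against HEK293T in −Met+Hcy at an unadjusted p under 0.05, and DESeq2 passed ANP32E in the latter. Of 15 related phosphatases, 2 were higher and 1 lower at an unadjusted p under 0.05 in HEK293T between the media, and DESeq2 passed 1, PPP4R3A, which was higher. In the other comparisons of these 15 phosphatases, 1 was higher in R1 between the media, 1 higher in the difference of responses, 3 lower in R1 against HEK293T in +Met and 2 higher in −Met+Hcy at an unadjusted p under 0.05. DESeq2 passed PPP1CC and PPP5C, both lower in R1 in +Met, and PPP6R3, higher, and PPP5C, lower, in R1 in −Met+Hcy. Without R1 −Met+Hcy replicate 3 edgeR passed more of these genes, beside 27.7% of all genes between the media in HEK293T, 32.7% between the lines in +Met and 30.3% in −Met+Hcy. Between the media in HEK293T the inhibitors ANP32A and CIP2A fell, PPP4R2 and PPP4R3A rose, and PPP6C, PPP6R1 and PPP3CB fell. In R1 against HEK293T in +Met STRN3 and PPP2R3B were higher and PPP2R3C, PPP1CC, PPP3CB, PPP5C and PPP6C were lower. In −Met+Hcy PPP2R3B was higher and PPP4R3A lower.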
